A study of Rattus norvegicus with 9 samples.

Results

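Gene expression was compared between Schwann cells grown from skin-derived precursors (SKPs) and the SKPs they start from. SKPs grow as spheres from dermal cells, and Schwann cells are the glia that ensheathe peripheral axons. The samples were chosen by their titles, which gave 3 arrays of dorsal trunk SKP-derived Schwann cells and 3 of dorsal trunk SKPs, 6 of the 9 arrays in the series. The other 3 arrays hold sciatic nerve Schwann cells and enter only an alternative fit. They spread less within their group (median standard deviation 0.11, against 0.23 in the SKP-derived Schwann cells and 0.226 in the SKPs). A call in that fit therefore rests on a smaller spread than the groups compared show. All cells came from adult Sprague Dawley rats, and the labels name no transgene, deletion or drug in either group. The SKPs were taken as floating spheres after 1 or 2 passages. The SKP-derived Schwann cells were SKPs plated in Schwann cell growth medium, passaged once and grown to confluence. The design text calls the 3 samples of a group independent, and the labels do not tie a Schwann cell sample to the SKP culture it came from. Expression was measured on Affymetrix arrays of rat genes that probe transcripts along their length. The comparison addresses what SKPs gain and lose in Schwann cell culture.

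A Schwann cell is specified from the neural crest by SOX10, survives and divides on neuregulin signals read by ERBB receptors, and, when it contacts a large axon, is driven by EGR2 to make compact myelin. After nerve injury it can return to an immature or repair state, which is marked by JUN, NGFR and NCAM1. SKPs share features with the dermal papilla of the hair follicle, a mesenchymal signalling centre that uses BMP, WNT and FGF ligands, and they carry dermal fibroblast genes such as Pdgfra and Twist1.

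Values are the deposited log2 levels, in which a difference of 1 is a 2-fold change, and 3 values in a row are those of arrays 1 to 3 of the group named. Differences are SKP-derived Schwann cells minus SKPs. A gene was called where the limma p-value, adjusted by Benjamini-Hochberg over the 14506 genes tested, was under 0.05, and "rose" or "fell" is used only of called genes. The 95% intervals are not adjusted for the number of genes, so that one can leave out 0 where the gene was not called. The lower quartile of the genes was 5.24 to 5.51 on the SKP-derived Schwann cell arrays and 5.23 to 5.33 on the SKP arrays, and levels under it are among the dimmest on these arrays. No detection calls were used, and no gene is called absent. The SKP arrays are given in the labels as a reanalysis of earlier deposited samples. Batch, sphere culture against confluent culture, and medium therefore cannot be told apart from the group in any result here.

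The 6 arrays split by group. The mean Euclidean distance over the genes was 136.8 between a SKP-derived Schwann cell array and a SKP array, 61.2 among the SKP-derived Schwann cells and 67.0 among the SKPs. 3 arrays stood apart on some genes. Array 2 of the SKP-derived Schwann cells lay nearest to the SKPs (127.4 to 133.4) and had the highest level of dermal mesenchymal genes in its group. SKP array 3 lay 80.1 and 71.3 from SKP arrays 1 and 2, which were 49.5 from each other. It was low in mitosis genes and several matrix genes and high in hypoxia and glycolysis genes. SKP array 1 was high in macrophage markers. Their values are given beside the genes they touch. The plot of list means per array shows these arrays.

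**Figure D1:**
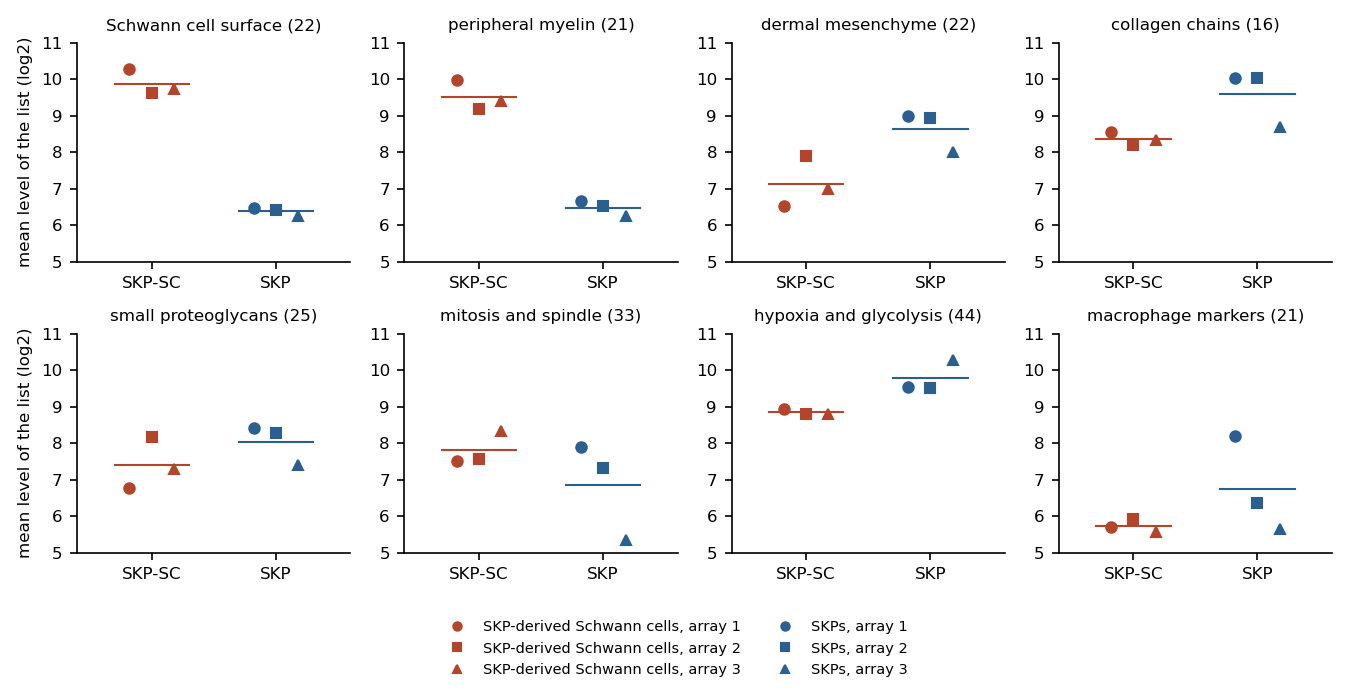
Mean deposited log2 level of 8 gene lists on each of the 6 arrays (points; measured members in brackets; SKP-SC, SKP-derived Schwann cells; lines, group means). The Schwann cell surface list lies at 9.63 to 10.27 against 6.26 to 6.47 in SKPs, array 2 of the SKP-derived Schwann cells is the highest of its group on dermal mesenchyme (7.88), and SKP array 3 is at 5.35 on mitosis genes, where the other SKP arrays are at 7.89 and 7.31.

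Of the 14506 genes, 4558 (31.4%) were called, with 2061 (14.2%) higher and 2497 (17.2%) lower in SKP-derived Schwann cells. After centring each array on its median, which moves the median gene from -0.01 to -0.14, the split was 1584 higher and 3023 lower. Calls that held under all 4 scalings tried numbered 1560 higher (10.8%) and 2427 lower (16.7%), and small differences are to be read against that shift. Of the called genes, 443 were at least 4-fold higher and 483 at least 4-fold lower, and 83 and 49 were at least 16-fold apart. The groups did not overlap at 6943 genes (47.9%), which is the background for the lineage regulators, where 21 of 27 did not. A list whose members were called at shares near 14.2% higher and 17.2% lower shows nothing particular to it, and where members of such a list are given below they are values of single genes. With any single array left out, calls over all genes also became fewer, at 1419 to 1914 higher and 1705 to 2397 lower. List counts and single calls without an array are to be read against that general loss.

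The gene with the largest rise was Pmp2, which encodes the fatty acid binding protein of peripheral myelin. Its level was 13.03, 12.98 and 12.89 in the SKP-derived Schwann cells and 4.05, 4.34 and 3.96 in the SKPs, a difference of 8.85 (SE 0.17, limma adjusted p = 6.99e-07). Both groups were tight, and no array of either came near the other group. Next came the glial cadherin gene Cdh19 (7.02), the neuregulin receptor gene Erbb3 (6.63), Ugt8, which makes the myelin lipid galactosylceramide (6.52), and the tight junction gene Cldn19 (6.46). The other 10 of the 15 largest rises were Entpd2, Gpm6b, Cmtm5, Igsf11, Plekhb1, Mbp, Palmd, Sostdc1, Reln and Shroom2, with differences of 5.46 to 6.27. Gpm6b encodes a membrane glycoprotein, and Reln the secreted glycoprotein reelin. Reln stood at 10.91, 11.04 and 11.27 against 5.64, 5.50 and 5.56, with very little spread in either group (difference 5.51, SE 0.17, limma adjusted p = 7.04e-06). Shroom2, a regulator of the actin cytoskeleton, had a second feature that rose by 2.31, so its size of change depends on the feature.

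The gene with the largest fall was Spp1, which encodes osteopontin, a secreted phosphoprotein. It stood at 13.65, 13.45 and 12.60 in the SKPs and 6.60, 6.80 and 5.94 in the SKP-derived Schwann cells, a difference of -6.79 (SE 0.33, limma adjusted p = 4.19e-05). Mmp10, the stromelysin-2 gene, fell from 10.96, 11.65 and 10.47 to 4.50, 4.44 and 4.57 (difference -6.52, SE 0.29, limma adjusted p = 3.64e-05). All 3 values after the fall lie under the lower quartile of the genes. Aqp1, the water channel, fell by 5.97, and Dio2, the deiodinase that activates thyroid hormone, fell by 5.90. The rest of the 15 largest falls were Ccn3, Ptgs1, Ltbp1, Bmp2, Clu, Mmp3, Mgst2, Pcp4, Il13ra2, Mfge8 and Avpr1a, with differences of -5.63 to -4.74. Clu encodes the secreted chaperone clusterin, Mfge8 a secreted protein that bridges integrins and phosphatidylserine, Pcp4 a calmodulin regulator and Avpr1a a vasopressin receptor. In bulk samples, fewer cells of a type and less RNA per cell cannot be told apart, so none of these falls says which of these happened.

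**Figure D2:**
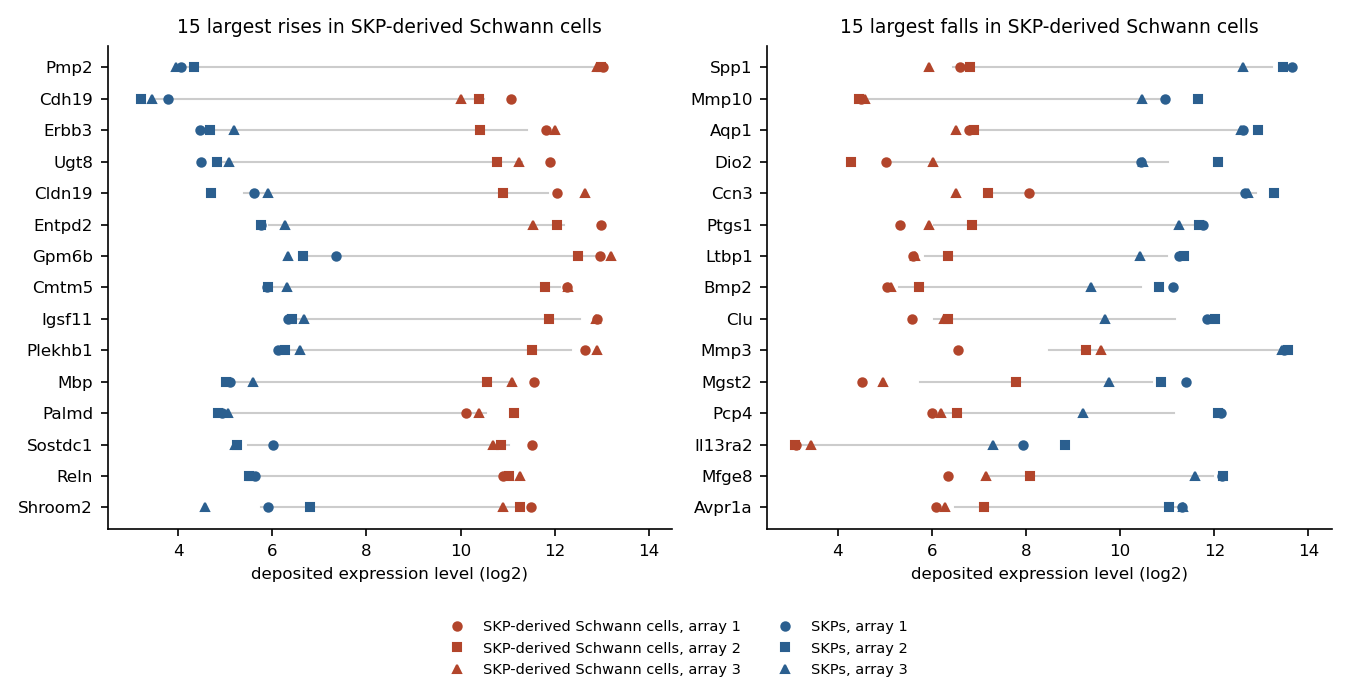
Deposited log2 level on each array for the 15 genes with the largest rise (left) and the largest fall (right) of those called and free of overlap between groups; grey lines join the group means. Pmp2 runs from about 4 in SKPs to 13 in SKP-derived Schwann cells, Reln and Mmp10 have tight groups, and Mmp3 and Mgst2 are spread among the SKP-derived Schwann cells.

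Transcription regulators of the Schwann cell lineage were mostly higher, with 14 of 27 rising and 4 falling (median difference 1.36, against -0.01 over all genes). Sox10, the factor that specifies the lineage, stood at 11.17, 9.96 and 10.90 in SKP-derived Schwann cells and 6.58, 6.84 and 6.73 in SKPs, a difference of 3.96 (SE 0.31, limma adjusted p = 0.000163). Array 2 was the lowest of its group and still well above every SKP array. Pou3f1, the POU factor that promotes the step to myelination, rose from 6.35, 6.32 and 6.97 to 10.83, 9.59 and 11.44 (difference 4.07, SE 0.45, limma adjusted p = 0.000639). Pax3, a neural crest factor of immature Schwann cells, rose by 3.22. Egr2, the main activator of myelin genes, was at 9.98, 10.07 and 10.56 against 8.06, 8.01 and 5.65, a difference of 2.96 (SE 0.61, limma adjusted p = 0.00861). Here the SKPs were unequal, with array 3 far below the other two. Sox2, which is active in immature Schwann cells and also in SKPs and the dermal papilla, was not called: it stood at 9.37, 7.65 and 9.71 against 8.46, 8.26 and 7.61, a difference of 0.80 (95% interval -0.41 to 2.00). Without array 2 of the SKP-derived Schwann cells Sox2 differed by 1.43 and was called (limma adjusted p = 0.0135). The 4 members that fell were Nab1, a corepressor of EGR proteins (-1.81), Mitf, the melanocyte regulator (-1.47), the ETS factor Etv1 (-1.44) and the Hippo pathway coactivator Yap1 (-1.07). The call of Etv1 was lost without array 3 of the SKP-derived Schwann cells (limma adjusted p = 0.0567) or SKP array 1 (0.0515) or 2 (0.0534).

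Surface, channel and cytoplasmic markers of Schwann cells rose at 17 of 22 members and fell at 1, with a median of 4.19. S100b, a calcium-binding protein used to identify Schwann cells, was 11.44, 10.93 and 11.12 in SKP-derived Schwann cells and 7.32, 5.72 and 5.18 in SKPs, a difference of 5.09 (SE 0.50, limma adjusted p = 0.00041). The cadherin gene Cdh19 stood at 11.08, 10.39 and 10.02 against 3.78, 3.21 and 3.45 (difference 7.02, SE 0.29, limma adjusted p = 2.67e-05). The only member to fall was Itga4, an integrin chain, which fell by 0.92. Its call was lost after cyclic loess (0.0583) or quantile normalization (0.0572) and without array 2 (0.119) or 3 (0.134) of the SKP-derived Schwann cells or SKP array 1 (0.135) or 2 (0.142), as limma adjusted p. Most of these markers were thus higher in the cells that the labels call Schwann cells, although the tissue field names dermis for every array. The list was chosen with earlier results of these data known, so it is no independent test of cell type. Genes linked to repair and denervated Schwann cells rose at 8 of 22 and fell at 1. The count of rises was 4 without SKP array 2 and 5 without array 1 of the SKP-derived Schwann cells. Over all genes, higher calls went from 2061 to 1459 and 1419 in these fits. It was 6 without SKP array 1 and 11 without array 3 of the SKP-derived Schwann cells. Jun, the transcription factor of the repair state, was 11.30, 10.18 and 10.38 against 9.65, 9.49 and 9.07, and its rise of 1.22 was not called without SKP array 2 (limma adjusted p = 0.0584). Olig1 was at 4.94, 5.05 and 4.88 against 4.88, 5.03 and 4.82, among the dimmest genes in both groups.

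Peripheral myelin genes rose at 14 of 21 and fell at 2 (median 3.06). Mbp, a protein of compact myelin, was 11.57, 10.57 and 11.09 against 5.10, 5.02 and 5.58, a difference of 5.85 (SE 0.28, limma adjusted p = 4.19e-05), while a second Mbp feature differed by 1.04. Pmp22, a myelin glycoprotein that many cells make, was already at 10.56, 10.44 and 9.43 in SKPs and reached 14.08, 13.59 and 13.85 (difference 3.69, SE 0.31, limma adjusted p = 0.000233). Cldn19 was 12.04, 10.91 and 12.64 against 5.62, 4.70 and 5.90, and Dusp15, a phosphatase gene active in myelinating glia, was 10.40, 8.76 and 10.14 against 4.66, 4.75 and 4.47 (difference 5.14, SE 0.40, limma adjusted p = 0.000163). The 2 members that fell were Tspan2, a tetraspanin (-2.17), and Mpzl2, an adhesion protein (-0.78), whose call was lost without array 1 of the SKP-derived Schwann cells (limma adjusted p = 0.0635) or SKP array 1 (0.0547).

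Promoters of these genes were read for the letters ACAAAG on either strand, a core that SOX proteins bind. In the 250 bases before the start site (RefSeq, build GRCr8), 5 of the 18 myelin genes with an entry held the letters, and 4 of the 13 that rose. The share over all 33469 promoters of the table was 16.3%. That share counts promoters and is not limited to the genes tested. A list gene counts once if any of its promoters held the letters. A match is a description of the letters and not of binding. The 3 promoters shown belong to genes that rose, and Mag and Cnp were picked after their values were seen. Mag, a myelin adhesion glycoprotein, was 10.11, 10.08 and 10.48 against 5.24, 5.58 and 4.93, and Cnp, a myelin enzyme, was 12.69, 11.84 and 12.84 against 8.15, 7.83 and 6.94. Capitals mark ACAAAG or its reverse complement CTTTGT, 5′ to 3′ on the strand of the gene, at chr1:95291045-95291294 for Mag (minus strand), chr10:86011254-86011503 for Cnp (plus strand) and chr3:161879251-161879500 for Dusp15 (minus strand).
Mag: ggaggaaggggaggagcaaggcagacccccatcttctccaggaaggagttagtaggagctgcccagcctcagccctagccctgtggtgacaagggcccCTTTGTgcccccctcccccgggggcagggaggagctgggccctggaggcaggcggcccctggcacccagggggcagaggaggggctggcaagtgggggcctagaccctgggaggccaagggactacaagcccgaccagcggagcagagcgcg
Cnp: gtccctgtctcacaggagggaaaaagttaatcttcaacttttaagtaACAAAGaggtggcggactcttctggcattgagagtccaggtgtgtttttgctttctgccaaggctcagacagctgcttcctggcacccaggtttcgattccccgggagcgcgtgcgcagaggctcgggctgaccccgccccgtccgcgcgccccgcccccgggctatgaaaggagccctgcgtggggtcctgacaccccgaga
Dusp15: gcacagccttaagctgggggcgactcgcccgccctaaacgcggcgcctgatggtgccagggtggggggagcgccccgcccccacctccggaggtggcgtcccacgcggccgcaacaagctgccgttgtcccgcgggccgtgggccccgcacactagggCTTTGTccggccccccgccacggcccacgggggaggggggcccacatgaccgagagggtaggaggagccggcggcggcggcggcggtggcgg
Each shows a single match. In Mag and Dusp15 it lies on the strand opposite to the gene and in Cnp on the same strand.

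The fatty acid binding protein family, to which Pmp2 belongs, did not move together. Of the 10 measured members, Pmp2 and Fabp5, the epidermal type, rose. Fabp5 was 9.24, 9.79 and 9.45 against 7.11, 6.67 and 8.12 (difference 2.19, SE 0.36, limma adjusted p = 0.00348). Fabp7, the brain type that marks early glia, stood at 4.97, 4.85 and 4.77 against 4.17, 4.80 and 4.75 and was not called (95% interval -0.20 to 0.78). Fabp3, the heart type, fell by 1.49, a call lost without array 1 or 3 of the SKP-derived Schwann cells (limma adjusted p = 0.0795 and 0.0797). Fabp6, the ileal type, fell by 0.93, a call lost without array 2 or 3 of that group (0.0543 and 0.0534). Fabp4, the adipocyte type, was 7.49, 4.70 and 4.68 in the SKPs and 4.17, 4.27 and 3.98 in the SKP-derived Schwann cells, so that SKP array 1 alone was high and the gene was not called. Fabp1, Fabp2, Fabp9 and Fabp12 were not called as deposited, and their levels lay between 2.34 and 4.94 on all 6 arrays.

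Enzymes of myelin lipids included large rises. Ugt8 stood at 11.91, 10.78 and 11.25 against 4.48, 4.82 and 5.09 (difference 6.52, SE 0.31, limma adjusted p = 4.19e-05), and Fa2h, which hydroxylates the fatty acids of these lipids, at 10.73, 9.36 and 10.78 against 5.19, 5.19 and 5.22 (difference 5.09, SE 0.36, limma adjusted p = 0.000141). Aspa, which releases acetate from N-acetylaspartate, rose by 2.81. Over the 16 galactolipid and sphingolipid genes, 4 rose (25.0%) and 5 fell (31.2%), with a median difference of -0.23 and a range of -1.77 to 6.52. The rises were Ugt8, Fa2h, Aspa and Sgms1, and the falls, which are not named here, were more in number. The count of falls was 2 without array 1 or 3 of the SKP-derived Schwann cells or SKP array 2, and 3 without SKP array 1 or 3. Sgms1, a sphingomyelin synthase, rose by 2.10 (limma adjusted p = 0.00119). The elongase gene Elovl6 was 11.61, 10.02 and 11.22 against 7.88, 7.43 and 5.52 (difference 4.01, SE 0.64, limma adjusted p = 0.00304), Fads2 rose by 3.51 and Fads1 by 2.22. SKP array 3 was the lowest for Elovl6 and Fads2. Scd, a desaturase, was 7.63, 9.92 and 9.93 against 8.55, 8.10 and 7.59 and was not called (1.08, 95% interval -0.33 to 2.48), but it was without array 1 of the SKP-derived Schwann cells (1.84, limma adjusted p = 0.00748). The core fatty acid synthesis genes Fasn and Acaca were not called, with differences of 0.35 and 0.26 (95% intervals -0.27 to 0.97 and -0.24 to 0.77). In all, 5 of 20 fatty acid genes rose (25.0%) and 1 fell (5.0%), the malic enzyme gene Me1 (-1.82). The shares over all genes were 14.2% and 17.2%. Of 22 cholesterol genes 5 rose (22.7%) and 3 fell (13.6%). None of the rises was left without SKP array 2 or without array 3 of the SKP-derived Schwann cells, 1 was left without SKP array 3 and 2 without array 2 of the SKP-derived Schwann cells. The falls held in each of these, namely Insig1, which restrains sterol synthesis (-1.69), the cholesterol transporter Npc2 (-1.48) and the mevalonate pathway enzyme Mvd (-1.18). Of the rises, Fdft1, the squalene synthase gene, rose by 1.14 (limma adjusted p = 0.0394), a call lost after median centring (0.0573) or cyclic loess (0.0536) and without array 2 (0.0899) or 3 (0.12) of the SKP-derived Schwann cells or SKP array 2 (0.092) or 3 (0.0794).

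**Figure D3:**
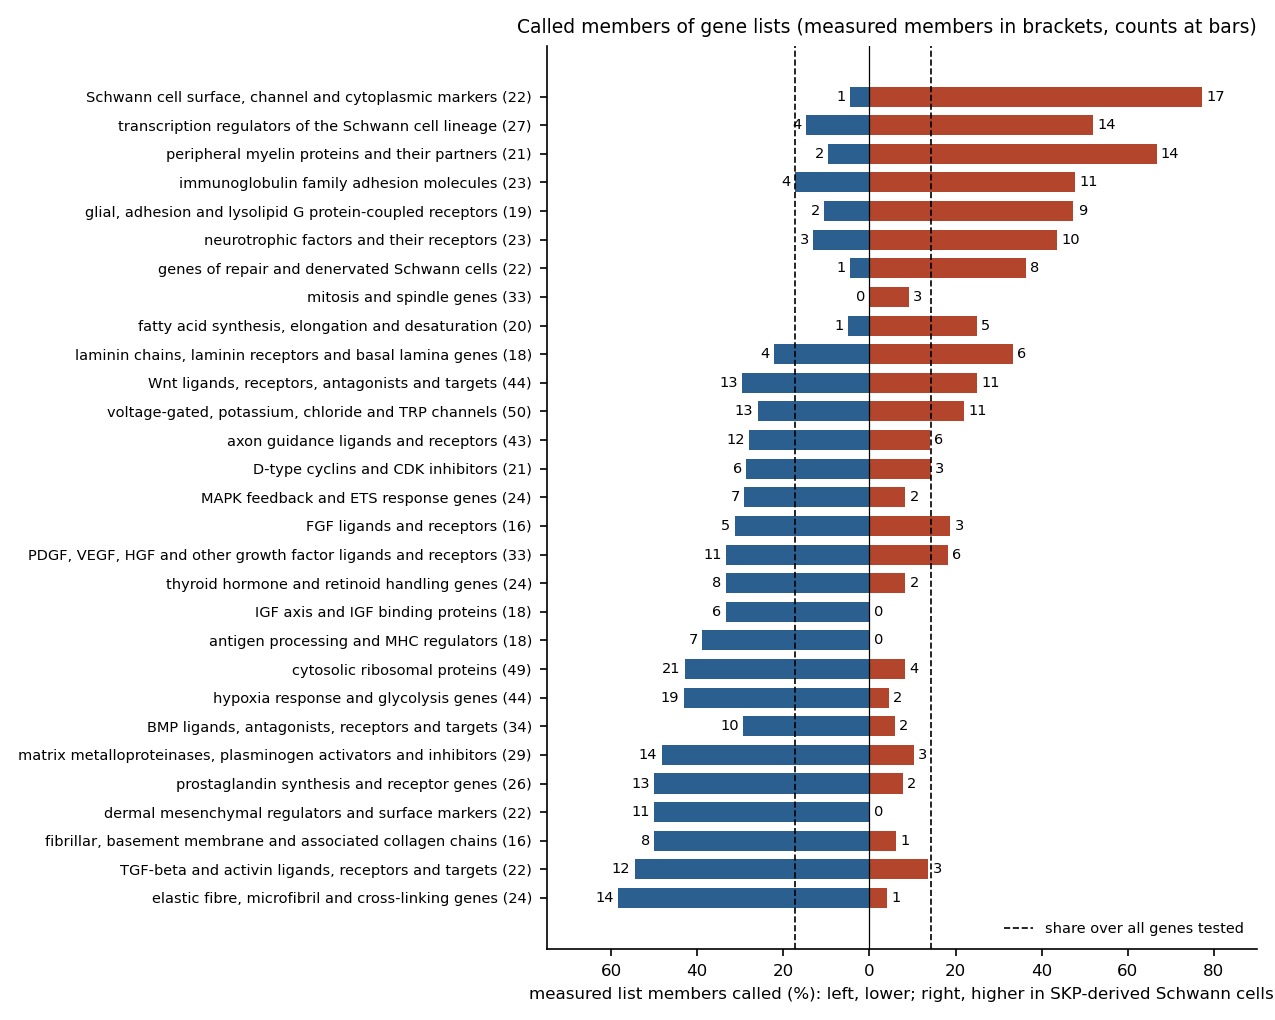
Share of the measured members of 29 gene lists that were called higher (right, red) or lower (left, blue) in SKP-derived Schwann cells, with counts at the bars and measured members in brackets; dashed lines mark the share over all 14506 genes (14.2% higher, 17.2% lower). Schwann cell surface, lineage regulator and myelin lists lie far to the right (17, 14 and 14 called higher), and elastic fibre, TGF-beta, collagen and dermal mesenchymal lists to the left (14, 12, 8 and 11 called lower).

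Among 15 neuregulin and EGF family genes, 4 rose (26.7%) and 2 fell (13.3%), against 14.2% and 17.2% over all genes. Rises numbered 2 without array 1 of the SKP-derived Schwann cells or SKP array 2, and falls numbered 4 without SKP array 3 and 1 without SKP array 2 or array 3 of the SKP-derived Schwann cells. Erbb3, the neuregulin receptor chain that defines Schwann cell dependence on neuregulin, was 11.82, 10.41 and 12 against 4.47, 4.67 and 5.19, a difference of 6.63 (SE 0.42, limma adjusted p = 8.65e-05). Its partner Erbb2 was 9.28, 7.48 and 9.48 against 7.83, 8.42 and 7.78 and was not called (0.74, 95% interval -0.43 to 1.91). The value of array 2 was the lowest of all 6 arrays, and without it Erbb2 differed by 1.37 and was called (limma adjusted p = 0.00842). Nrg1, the neuregulin ligand, fell from 9.53, 9.28 and 8.14 to 6.51, 7.80 and 6.29 (difference -2.12, SE 0.48, limma adjusted p = 0.0132). That call was lost without array 3 of the SKP-derived Schwann cells (0.0507) or SKP array 2 (0.0519). Hbegf, an EGF family ligand, rose by 2.90. Errfi1, a feedback inhibitor of EGF receptors, fell by 1.44 (limma adjusted p = 0.00845).

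Among 23 genes of neurotrophic factors and their receptors, 10 rose and 3 fell. Gfra1, the GDNF co-receptor, was 11.47, 10.33 and 10.75 against 6.25, 6.18 and 5.24 (difference 4.96, SE 0.37, limma adjusted p = 0.000151). Ngfr, the low-affinity neurotrophin receptor, was 12.14, 10.33 and 11.68 against 7.47, 7.11 and 6.86 (difference 4.24, SE 0.44, limma adjusted p = 0.000496), with array 2 again the lowest of its group. Ntrk3, the receptor of neurotrophin-3, rose by 3.94 and Cntfr, the receptor of ciliary neurotrophic factor, by 2.57. Of the ligands, Bdnf fell from 7.12, 7.57 and 8.46 to 5.26, 6.02 and 5.01 (difference -2.28, SE 0.39, limma adjusted p = 0.00385), and Gdnf was not called, at 6.65, 6.35 and 6.30 against 6.28, 6.48 and 6.33 (95% interval -0.33 to 0.47).

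Desert hedgehog, the signal by which Schwann cells pattern the perineurium, rose. Dhh was 9.57, 9.77 and 10.06 in SKP-derived Schwann cells and 5.28, 5.61 and 5.65 in SKPs, a difference of 4.29 (SE 0.20, limma adjusted p = 4.19e-05). Gli1, a target of the pathway in receiving cells, was 6.59, 7.10 and 6.61 against 6.59, 6.73 and 6.75 and was not called (95% interval -0.37 to 0.53). Shh was high on 2 of the 3 arrays (7.78, 7.54 and 5.55 against 5.09, 4.62 and 5.05), and its rise of 2.03 was lost without either of those arrays (limma adjusted p = 0.0771 and 0.0776) or without SKP array 1 (0.0569) or 2 (0.0825). The co-receptor gene Cdon fell by 2.79 and the transcription factor Gli3 fell by 1.65. Of the 9 hedgehog genes measured, 3 rose and 2 fell, and 1 rose without array 1 of the SKP-derived Schwann cells.

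BMP pathway genes fell at 10 of 34 and rose at 2. Bmp2, a ligand, was 11.13, 10.82 and 9.37 in SKPs and 5.05, 5.73 and 5.13 in SKP-derived Schwann cells (difference -5.13, SE 0.45, limma adjusted p = 0.000243). Grem1, a secreted BMP antagonist, was 10.83, 11.09 and 9.71 against 5.54, 5.99 and 5.94 (difference -4.72, SE 0.35, limma adjusted p = 0.000154), and another antagonist, Nbl1, fell by 2.72. The inhibitory Smad gene Smad7 fell by 3.10. Id1, a direct target, was 9.71, 8.42 and 7.31 in SKPs and 6.0, 6.21 and 5.97 in SKP-derived Schwann cells (difference -2.42, SE 0.53, limma adjusted p = 0.0109). The ligand, both antagonists and Id1 were thus lower. The 2 members that rose were the target gene Id2 (1.65) and the ligand gene Gdf11 (0.83). The Gdf11 call was lost after median centring (limma adjusted p = 0.0643) and without array 1 (0.0909) or 3 (0.0861) of the SKP-derived Schwann cells or SKP array 1 (0.0816) or 3 (0.0694), each of which left 1 rise.

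The TGF-beta and activin list fell at 12 of 22 and rose at 3. Ltbp1, which stores latent TGF-beta in the matrix, was 11.25, 11.35 and 10.41 in SKPs and 5.60, 6.33 and 5.63 in SKP-derived Schwann cells, a difference of -5.15 (SE 0.31, limma adjusted p = 6.94e-05). Inhba, an activin subunit, fell by 3.35 and the ligand Tgfb1 fell by 1.84. Going the other way, Nrep, a neuronal regeneration protein, rose from 8.01, 8.54 and 7.09 to 11.47, 11.22 and 11.62 (difference 3.56, SE 0.35, limma adjusted p = 0.000415). Ltbp2, a microfibril protein, fell by 4.15 (limma adjusted p = 0.00549).

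WNT genes went both ways. The ligand Wnt5a was 10.84, 10.55 and 9.23 in SKPs and 6.08, 7.09 and 6.32 in SKP-derived Schwann cells (difference -3.71, SE 0.44, limma adjusted p = 0.000903). The R-spondin receptors, which raise the response to WNT, rose: Lgr5 was 9.30, 8.60 and 9.98 against 5.10, 5.05 and 4.37 (difference 4.45, SE 0.36, limma adjusted p = 0.000202) and Lgr4 was 11.18, 11.09 and 11.50 against 7.40, 7.44 and 7.89 (difference 3.68, SE 0.20, limma adjusted p = 5.43e-05). Of the antagonists, Sostdc1 rose by 5.53 and Sfrp1 by 3.43, while Sfrp2 fell by 3.00. Axin2, a target of the pathway, was 7.57, 7.42 and 7.62 against 9.08, 9.47 and 7.73. It was not called (-1.22, limma adjusted p = 0.0563), but it was without SKP array 3, where the difference was -1.74 (limma adjusted p = 0.000862). Over the list, 11 of 44 rose and 13 fell.

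Fgfr2 was 9.82, 9.80 and 8.33 in SKPs and 5.37, 5.55 and 5.11 in SKP-derived Schwann cells (difference -3.97, SE 0.40, limma adjusted p = 0.00044), Fgfr1 fell by 2.03, and Fgf10, a ligand of the dermal papilla, fell by 3.86. Fgf1 rose from 4.71, 4.81 and 4.75 to 7.71, 7.41 and 7.83 (difference 2.90, SE 0.17, limma adjusted p = 6.56e-05), and Fgf2 was not called (-0.27, 95% interval -1.18 to 0.65). Of 16 FGF genes 3 rose and 5 fell, with 1 rise left without any one of arrays 1 and 3 of the SKP-derived Schwann cells or of the 3 SKP arrays. In the list of MAPK feedback and ETS response genes, 7 of 24 fell and 2 rose. Dusp5, an ERK phosphatase, fell by 2.88 and Etv4, an ETS factor, fell by 1.65, while Dusp6 and Spry2, feedback inhibitors of ERK, were not called as deposited (-0.47 and -0.45). Spry2 was called lower under each of the other scalings (limma adjusted p from 0.0321 to 0.0463), and Dusp6 without array 3 of the SKP-derived Schwann cells (0.0376). Dusp1, a MAPK phosphatase, fell by 1.95 (limma adjusted p = 0.0023), and Etv5, an ETS factor, was not called (-0.79, 95% interval -2.21 to 0.63).

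IGF axis genes fell at 6 of 18 and rose at 0, with 4 to 7 falls when single arrays were left out. Igf2r, the receptor that clears IGF2, was 11.59, 12.13 and 12.12 in SKPs and 7.86, 9.47 and 8.87 in SKP-derived Schwann cells (difference -3.21, SE 0.39, limma adjusted p = 0.000964). Igfbp3, an IGF carrier, fell by 2.78, and Stc2, an inhibitor of IGF carrier cleavage, fell by 3.26, with SKP array 3 the highest for Stc2 (9.36, 9.55 and 11.91). Igf1 was uneven in both groups (5.08, 8.07 and 6.32 against 8.40, 8.33 and 4.66) and was not called. Igf1r, the IGF1 receptor, was not called (-0.80, 95% interval -1.42 to -0.17), but it was after median centring (0.0435), cyclic loess (0.0338) or quantile normalization (0.0407), as limma adjusted p. Pappa, a protease that cleaves IGF carriers, fell by 2.68 (limma adjusted p = 0.0405), a call lost without array 1 (0.122) or 3 (0.125) of the SKP-derived Schwann cells or SKP array 1 (0.0785), 2 (0.059) or 3 (0.0852). Igfbp5, another IGF carrier, was not called (-0.65, 95% interval -2.89 to 1.59). Of other growth factor genes, 11 of 33 fell and 6 rose, 3 without array 1 of the SKP-derived Schwann cells. Pdgfra, the PDGF receptor of dermal fibroblasts, was 11.47, 11.77 and 9.71 in SKPs and 5.70, 7.79 and 6.77 in SKP-derived Schwann cells (difference -4.23, SE 0.65, limma adjusted p = 0.00258). The ligands Pdgfc and Vegfc fell (differences -3.43 and -3.27), while Pdgfa was not called (0.75, 95% interval -0.02 to 1.52), though it was without SKP array 1 (limma adjusted p = 0.0399) and with array weights (0.0392). Pdgfrb, the other PDGF receptor, fell by 1.43 (limma adjusted p = 0.0076). Ptn, the growth factor pleiotrophin, rose from 5.22, 5.18 and 4.91 to 7.74, 8.93 and 9.73 (difference 3.69, SE 0.45, limma adjusted p = 0.000944).

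Notch1 rose, from 6.72, 7.21 and 6.02 to 10.54, 9.67 and 10.91 (difference 3.72, SE 0.39, limma adjusted p = 0.000539), and so did the feedback target Nrarp (1.65). The ligand Dll1 and the nuclear effector Rbpj fell (differences -1.77 and -1.67), and Jag1 and Hes1 were not called (0.47 and -0.70). Of 21 Notch genes, 3 rose (14.3%) and 4 fell (19.0%), near the shares over all genes.

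**Figure D4:**
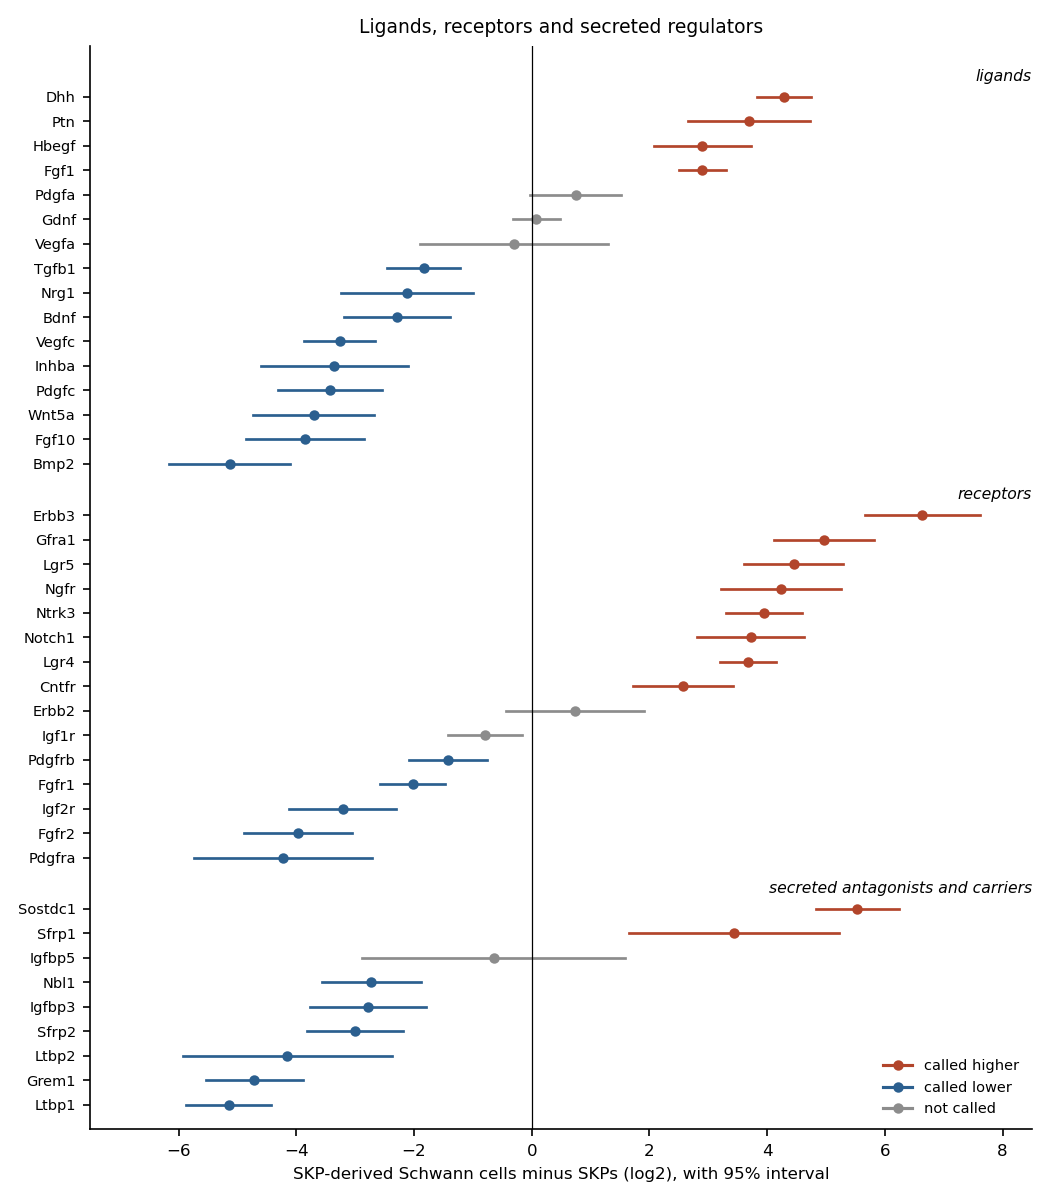
Difference between SKP-derived Schwann cells and SKPs in log2 level (points) with its 95% interval from the limma fit (lines) for 40 ligands, receptors and secreted regulators; red, called higher; blue, called lower; grey, not called. Erbb3, Gfra1 and Lgr5 lead the receptors on the right and Pdgfra and Fgfr2 those on the left; among the ligands Dhh is at 4.29 and Bmp2 at -5.13.

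Dermal mesenchymal regulators and surface markers fell at 11 of 22 and rose at 0 (median -1.70). Twist1, a mesenchymal transcription factor, was 10.48, 10.29 and 9.65 in SKPs and 6.31, 8.57 and 7.36 in SKP-derived Schwann cells, a difference of -2.73 (SE 0.53, limma adjusted p = 0.00667). Prrx1, a homeobox factor of skin and limb mesenchyme, was 12.55, 12.56 and 11.57 in SKPs and 6.78, 10.62 and 7.91 in SKP-derived Schwann cells (difference -3.79, SE 0.87, limma adjusted p = 0.0135). Array 2 of the SKP-derived Schwann cells stood well above the others of its group, and was the highest of the group for Pdgfra and Twist1 as well. The Prrx1 call was lost without array 3 of the SKP-derived Schwann cells (0.0537) or SKP array 2 (0.0512). The list mean was 7.88 on array 2 of the SKP-derived Schwann cells, against 6.51 and 7.0 on arrays 1 and 3 and 7.99 to 8.98 in SKPs. Without array 2, 12 members fell, and whether mesenchymal cells in that culture bear on its values was not tested. Falls numbered 10 without array 1 and 8 without array 3 of the SKP-derived Schwann cells. They numbered 9, 8 and 11 without SKP array 1, 2 and 3. Fap, a surface protease of fibroblasts, fell by 3.08 (limma adjusted p = 0.0183), a call lost without array 1 (0.0521) or 3 (0.0651) of the SKP-derived Schwann cells or SKP array 1 (0.0612) or 2 (0.0594).

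Genes associated with SKPs and the dermal papilla fell at 11 of 26 and rose at 2. Prdm1, a transcriptional repressor, was 9.06, 9.42 and 10.33 in SKPs and 5.32, 5.74 and 5.21 in SKP-derived Schwann cells (difference -4.18, SE 0.33, limma adjusted p = 0.000174). The transcription factor Ebf1 fell by 2.74. Crabp1, a retinoic acid binding protein, was 13.52, 13.34 and 10.49 in SKPs and 8.43, 9.53 and 11.55 in SKP-derived Schwann cells, so that array 3 of the second group lay above array 3 of the first. Crabp1 was not called (-2.61, limma adjusted p = 0.0796), but it was without SKP array 3 (-3.59, limma adjusted p = 0.0108) or array 3 of the SKP-derived Schwann cells (0.0413). The members that rose were Ncam1 (2.28), which Schwann cells also express, and the Notch target Hey1 (1.57).

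Collagen genes fell at 8 of 16 and rose at 1. The count of falls was 5 without array 2 or 3 of the SKP-derived Schwann cells or without SKP array 1 or 2, and 10 without SKP array 3, which was the lowest of its group for most of them. Col1a2, a chain of collagen I, was 13.18, 13.16 and 12.38 in SKPs and 11.35, 10.82 and 10.98 in SKP-derived Schwann cells (difference -1.86, SE 0.27, limma adjusted p = 0.00192). Col5a2 fell by 3.28, and Col7a1, the anchoring fibril collagen, was 10.70, 10.83 and 8.66 in SKPs and 7.26, 6.80 and 6.69 in SKP-derived Schwann cells (difference -3.14, SE 0.54, limma adjusted p = 0.00421). Col14a1, a fibril-associated collagen, rose by 2.52 against the rest of the list. Col1a1, the other chain of collagen I, was 13.30, 13.40 and 12.16 in SKPs and 11.94, 11.01 and 11.34 in SKP-derived Schwann cells. Col1a1 fell by 1.53 (limma adjusted p = 0.0187), a call lost without array 2 (0.0584) or 3 (0.0613) of the SKP-derived Schwann cells or SKP array 1 (0.0636) or 2 (0.0674). Col3a1, the collagen III gene, was 13.01, 12.86 and 9.36 in SKPs and 8.21, 8.70 and 8.55 in SKP-derived Schwann cells. Col3a1 fell by 3.26 (limma adjusted p = 0.0261), a call lost without array 1 (0.0763), 2 (0.0599) or 3 (0.0728) of the SKP-derived Schwann cells or SKP array 1 (0.0806) or 2 (0.0891). Col8a1, a short-chain collagen, fell by 3.79 (limma adjusted p = 0.00681). Elastic fibre and microfibril genes fell at 14 of 24 and rose at 1, the exception being Ltbp4 (1.70). Fbn1, the fibrillin gene, was 12.13, 12.45 and 11.18 in SKPs and 7.18, 9.37 and 8.19 in SKP-derived Schwann cells (difference -3.67, SE 0.55, limma adjusted p = 0.00233). Elastin itself (Eln) and the cross-linking enzyme Lox were not called (-0.98 and -0.38), and Eln was called lower without SKP array 3 (-1.72, limma adjusted p = 0.00378). Efemp1, a fibulin, fell by 3.38 (limma adjusted p = 0.0112).

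Small leucine-rich and hyaluronan-binding proteoglycans included genes that were uneven within the groups. Dcn, the decorin gene, was 10.65, 13.26 and 12.27 in SKP-derived Schwann cells and 13.25, 13.44 and 12.89 in SKPs, and Lum, the lumican gene, was 7.03, 11.72 and 9.54 and 11.12, 10.88 and 8.53. Array 2 of the SKP-derived Schwann cells was above every SKP array for Lum. Neither gene was called, with 95% intervals of -2.48 to 0.22 for Dcn and -3.43 to 1.94 for Lum, though Dcn was called lower without array 2 of the SKP-derived Schwann cells (limma adjusted p = 0.0347). Bgn, the biglycan gene, was 8.80, 12.11 and 9.74 in SKP-derived Schwann cells and 12.29, 12.67 and 12.51 in SKPs, so that the SKPs were tight and the other group was not. Bgn fell by 2.27 (limma adjusted p = 0.0486), a call lost without array 1 (0.124) or 3 (0.141) of the SKP-derived Schwann cells or SKP array 1 (0.096), 2 (0.126) or 3 (0.0767). Hapln1, a link protein of hyaluronan, fell by 2.81 and the glypican gene Gpc4 fell by 2.79, and both calls held without each array in turn. Over the 25 genes 5 fell and 1 rose, with 3 falls without array 1 or 3 of the SKP-derived Schwann cells or without SKP array 1 or 2, and 7 without array 2 of the SKP-derived Schwann cells or without SKP array 3. Leaving out both of these arrays, an alternative chosen after seeing the data, gave 14 falls. Rises numbered 2 without array 1 or 3 of the SKP-derived Schwann cells. The cell surface heparan sulfate proteoglycans moved in opposite ways: Sdc1 was 11.67, 11.67 and 11.38 in SKPs and 7.05, 8.36 and 7.56 in SKP-derived Schwann cells (difference -3.92, SE 0.32, limma adjusted p = 0.000202), while Sdc3, the neural syndecan, rose from 8.07, 7.72 and 8.61 to 11.04, 9.64 and 11 (difference 2.43, SE 0.41, limma adjusted p = 0.00377).

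Matrix proteases and plasminogen activators fell at 14 of 29 and rose at 3, with 9 falls without SKP array 2. Mmp3, stromelysin-1, was 13.49, 13.56 and 13.44 in SKPs and 6.55, 9.28 and 9.59 in SKP-derived Schwann cells (difference -5.02, SE 0.71, limma adjusted p = 0.00185). The SKPs lay close together, whereas array 1 of the SKP-derived Schwann cells was far below arrays 2 and 3. Mmp12, the macrophage elastase, fell by 4.72 and the gelatinase gene Mmp2 fell by 1.61. Mmp15, a membrane-type metalloproteinase, moved against them, from 6.48, 6.41 and 6.41 in SKPs to 11.94, 11.42 and 11.96 in SKP-derived Schwann cells (difference 5.34, SE 0.19, limma adjusted p = 1.25e-05). Its SKP values were nearly equal. Timp1, an inhibitor of these enzymes, was not called (1.39, limma adjusted p = 0.0592), though it was without SKP array 3 (0.0289), in the 9-array fit (0.0255) and with array weights (0.0381) or the replicate block (0.0355). Mmp14, a membrane-type metalloproteinase, fell by 2.00 (limma adjusted p = 0.0167), a call lost without array 1 (0.0573) or 3 (0.0613) of the SKP-derived Schwann cells or SKP array 2 (0.058). Among matricellular genes, Ccn3 was 12.66, 13.26 and 12.72 in SKPs and 8.07, 7.18 and 6.51 in SKP-derived Schwann cells (difference -5.63, SE 0.38, limma adjusted p = 0.000114), and Postn, periostin, was not called (-1.97, limma adjusted p = 0.0637), though it was after median centring (0.0476), in the 9-array fit (0.0309), with array weights (0.00412), and without array 2 of the SKP-derived Schwann cells (0.025) or SKP array 3 (0.0381). Tnn, a tenascin, fell by 4.34 (limma adjusted p = 0.0292), a call lost without array 1 (0.0727), 2 (0.065) or 3 (0.0905) of the SKP-derived Schwann cells or SKP array 1 (0.0832) or 2 (0.0992). Thbs1, a thrombospondin, fell by 3.09 (limma adjusted p = 0.0389), a call lost without array 1 (0.12), 2 (0.0567) or 3 (0.0759) of the SKP-derived Schwann cells or SKP array 1 (0.116) or 2 (0.123). Of the 17 measured, 5 fell (29.4%) and 1 rose (5.9%), against 17.2% and 14.2% over all genes. There were 3 falls without array 1 or 3 of the SKP-derived Schwann cells or without SKP array 1 or 2.

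Laminin receptor and basal lamina genes rose at 6 of 18 and fell at 4. Itgb4, the chain of the laminin receptor of mature Schwann cells, was 11.32, 9.73 and 11.25 against 5.85, 5.15 and 5.98 in SKPs (difference 5.10, SE 0.44, limma adjusted p = 0.000243), and Itga7, a laminin receptor chain, rose by 2.33. Itgb8 was 12.23, 11.53 and 11.95 against 7.62, 7.59 and 6.87 (difference 4.54, SE 0.27, limma adjusted p = 6.56e-05). Itga5, the fibronectin receptor chain, was 10.34, 10.57 and 10.06 in SKPs and 6.81, 8.20 and 7.04 in SKP-derived Schwann cells (difference -2.97, SE 0.36, limma adjusted p = 0.000931). Col4a1, a basal lamina collagen, fell by 2.85. Sgcd, a sarcoglycan, fell by 2.40 (limma adjusted p = 0.00855). In a list of 16 other adhesion genes, 3 rose (18.8%) and 4 fell (25.0%), against 14.2% and 17.2% over all genes. There were 2 falls without SKP array 1 or 2 or array 3 of the SKP-derived Schwann cells, and 6 without SKP array 3. There were 2 rises without each of the arrays but SKP array 2. Itgb5, an integrin chain that binds vitronectin, fell by 2.39 (limma adjusted p = 0.000945). Fn1, the fibronectin gene, fell by 1.92 (limma adjusted p = 0.024), a call lost without array 1 (0.0806) or 3 (0.0672) of the SKP-derived Schwann cells or SKP array 1 (0.078) or 2 (0.0827). Cd44, a hyaluronan receptor, was not called (-0.59, 95% interval -1.30 to 0.13). Of 23 adhesion genes of the immunoglobulin family, 11 rose (47.8%) and 4 fell (17.4%), with differences from -2.68 to 6.07 over the list. The members named below all rose. The 11 rises did not change in number when any single array was left out, while falls numbered 2 without SKP array 1 or array 1 of the SKP-derived Schwann cells. L1cam was 10.68, 9.69 and 10.09 against 5.11, 5.42 and 4.99 (difference 4.98, SE 0.27, limma adjusted p = 5.19e-05), Igsf11 was 12.90, 11.87 and 12.87 against 6.33, 6.42 and 6.68 and Mcam was 12.01, 11.71 and 12.42 against 6.57, 7.19 and 6.95. Cadm3, a synaptic cell adhesion molecule, rose by 4.56 (limma adjusted p = 0.00096), and Nrcam, an adhesion protein of the node of Ranvier, rose by 3.08 (limma adjusted p = 0.000931). Ncam1 rose from 7.54, 8.23 and 9.26 to 10.62, 10.72 and 10.54 (difference 2.28, SE 0.39, limma adjusted p = 0.00408), with a wide spread among the SKPs and a narrow one among the SKP-derived Schwann cells.

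Cadherins and protocadherins rose at 4 of 18 (22.2%) and fell at 3 (16.7%), against 14.2% and 17.2% over all genes. Cdh6 was 9.14, 9.36 and 10.35 against 5.39, 5.32 and 5.41 (difference 4.25, SE 0.31, limma adjusted p = 0.000141), and Pcdh17 rose by 4.26. Cdh1, E-cadherin, which forms junctions within the non-compact myelin of Schwann cells, was 9.28, 7.72 and 7.10 against 5.61, 4.82 and 4.96 (difference 2.91, SE 0.52, limma adjusted p = 0.00489). Cdh2, N-cadherin, was not called (0.47, 95% interval -0.15 to 1.09), though it was without array 3 of the SKP-derived Schwann cells (limma adjusted p = 0.0248) and with array weights (0.0468). Pcdh18, a protocadherin, fell by 3.04 (limma adjusted p = 0.000601). In the claudin list, Cldn19 rose, but Cldn11 was 11.03, 8.37 and 6.45 against 5.89, 5.94 and 5.72 and was not called (2.77, limma adjusted p = 0.0647), though it was without array 3 of the SKP-derived Schwann cells, the lowest of its group (0.0125), in the 9-array fit (0.0325) and with array weights (0.0099). Cldn1, a perineurial and epithelial claudin, was 5.62, 9.96 and 4.29 in SKP-derived Schwann cells, so that array 2 alone was high, and 6.80, 6.14 and 5.45 in SKPs. Of the 19 tight junction genes 3 rose (15.8%) and 1 fell (5.3%), near and below the 14.2% and 17.2% over all genes. There was 1 rise without array 1 of the SKP-derived Schwann cells, and 0 falls without any array of that group or SKP array 2 or 3. Cldn3, another claudin, rose by 0.72 (limma adjusted p = 0.0126), a call lost without array 1 (0.0584) of the SKP-derived Schwann cells. Tjp3, a junction scaffold, rose by 0.69 (limma adjusted p = 0.0148), a call lost without array 1 (0.0552) of the SKP-derived Schwann cells or SKP array 1 (0.053). Pard3, a polarity protein, fell by 0.90 (limma adjusted p = 0.0362), a call lost without array 1 (0.0951), 2 (0.092) or 3 (0.0722) of the SKP-derived Schwann cells or SKP array 2 (0.0677) or 3 (0.0515).

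Ion channel genes rose at 11 of 50 and fell at 13. Scn7a, a sodium channel of glia, was 12.89, 11.93 and 11.77 against 7.97, 6.03 and 6.66 (difference 5.31, SE 0.51, limma adjusted p = 0.000363). Kcnj10, the inward rectifier by which glia take up potassium, was 11.25, 10.72 and 11.70 against 6.20, 6.40 and 6.20 (difference 4.96, SE 0.26, limma adjusted p = 4.58e-05). Kcna1, a voltage-gated potassium channel, rose by 2.80, but SKP array 2 was at 7.49 and the call was lost without array 1 (limma adjusted p = 0.104) or 2 (0.0649) of the SKP-derived Schwann cells or SKP array 1 (0.103) or 3 (0.0699). Kcnn4, a calcium-activated potassium channel, fell from 9.88, 9.49 and 9.39 to 5.83, 6.13 and 5.80 (difference -3.66, SE 0.20, limma adjusted p = 4.98e-05), and Aqp1 from 12.60, 12.92 and 12.56 to 6.78, 6.90 and 6.50 (difference -5.97, SE 0.19, limma adjusted p = 7.04e-06). Both groups were tight for Aqp1.

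Extracellular nucleotide genes included rises among the largest of all genes. Entpd2, the ectonucleotidase of non-myelinating glia that hydrolyses ATP, was 12.98, 12.06 and 11.55 against 5.75, 5.76 and 6.27 (difference 6.27, SE 0.36, limma adjusted p = 6.11e-05). P2rx7, an ATP-gated channel, was 10.90, 10.22 and 11.36 against 5.26, 5.76 and 5.36 (difference 5.37, SE 0.30, limma adjusted p = 5.76e-05). P2ry12, an ADP receptor, rose by 3.40. The ectoenzyme gene Enpp3 fell by 3.81 and the nucleotide receptor P2ry2 fell by 1.62. Nt5e, which makes adenosine from AMP, was 8.20, 7.96 and 5.39 in SKPs and 5.17, 5.84 and 5.12 in SKP-derived Schwann cells. It was not called (-1.81, limma adjusted p = 0.0819), but it was without SKP array 3 (-2.70, limma adjusted p = 0.000371). In all, 8 of 26 rose and 5 fell, with 3 falls without array 1 or 2 of the SKP-derived Schwann cells or SKP array 2.

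Glial, adhesion and lysolipid receptors coupled to G proteins rose at 9 of 19 and fell at 2. Gpr37l1, a receptor of glia, was 11.30, 10.02 and 10.79 against 5.10, 5.90 and 5.65 (difference 5.15, SE 0.35, limma adjusted p = 0.000114). Adgrl3, a latrophilin, was 10.13, 9.67 and 10.15 against 5.23, 5.11 and 5.72 (difference 4.63, SE 0.23, limma adjusted p = 4.19e-05), Lpar4 rose by 4.17 and Lpar1, the main lysophosphatidic acid receptor of Schwann cells, by 1.57. Lpar1 was already at 9.58, 9.25 and 9.49 in SKPs. The 2 that fell were Adgrl2 (-1.25) and the sphingosine phosphate receptor S1pr2 (-0.85). The S1pr2 call was lost without array 1 of the SKP-derived Schwann cells (limma adjusted p = 0.0742) or SKP array 1 (0.0651) or 2 (0.067), each of which left 1 fall. Of 38 transmitter receptor genes 5 rose (13.2%) and 2 fell (5.3%), near and below the shares over all genes, with 5 falls without SKP array 3 and 1 without SKP array 2 or any array of the SKP-derived Schwann cells. Grik2, a kainate receptor subunit, was 8.67, 7.12 and 7.37 against 4.03, 4.65 and 4.35 (difference 3.38, SE 0.40, limma adjusted p = 0.000854), and Grin2b, an NMDA receptor subunit, rose by 2.75. Htr2a, a serotonin receptor, was 9.91, 10.60 and 9.54 in SKPs and 4.71, 6.96 and 5.73 in SKP-derived Schwann cells (difference -4.21, SE 0.54, limma adjusted p = 0.00119). Gabbr1, a GABA-B receptor subunit, rose by 1.24 (limma adjusted p = 0.0103), while Gria3, an AMPA receptor subunit, was not called (0.32, 95% interval -0.51 to 1.15). Grik3, another kainate receptor subunit, was not called (0.79, 95% interval 0.09 to 1.49), but it was without array 3 (0.0192) of the SKP-derived Schwann cells, as limma adjusted p.

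Axon guidance genes fell at 12 of 43 and rose at 6. Sema3a, a secreted repellent of axons, was 11.88, 11.96 and 11.54 in SKPs and 7.19, 7.69 and 6.99 in SKP-derived Schwann cells (difference -4.50, SE 0.23, limma adjusted p = 4.43e-05), whereas Sema3b, of the same class, was 11.58, 10.34 and 11.32 against 6.49, 6.66 and 7.70 (difference 4.13, SE 0.41, limma adjusted p = 0.000436). Plxnb3, a semaphorin receptor, was 10.25, 9.62 and 10.59 against 4.55, 5.07 and 5.26 (difference 5.19, SE 0.29, limma adjusted p = 6.11e-05). Robo2, a SLIT receptor, fell by 3.59, with array 2 of the SKP-derived Schwann cells at 8.23, well above the other two. Sema3c, another secreted semaphorin, fell by 1.00 (limma adjusted p = 0.00746). Epha5, an ephrin receptor, was not called (-1.12, 95% interval -2.12 to -0.13), but it was without SKP array 2 (0.0355), as limma adjusted p. Transporter genes rose at 4 of 25 and fell at 6: Slc36a2, a proton-coupled amino acid transporter, rose from 5.17, 5.29 and 4.74 to 9.68, 8.67 and 9.16 (difference 4.10, SE 0.28, limma adjusted p = 0.00012) and Slc7a7, a cationic amino acid transporter, fell by 3.41. Slc38a1, a glutamine transporter, rose by 2.39 (limma adjusted p = 0.00271), and Slc1a4, a neutral amino acid transporter, fell by 2.04 (limma adjusted p = 0.00308). Slc1a3, the glial glutamate transporter, was not called (-0.52, 95% interval -1.49 to 0.46), but it was without SKP array 3 (0.0483), as limma adjusted p. Slc6a9, a glycine transporter, was not called (0.28, 95% interval -0.78 to 1.33). Slc7a2, a cationic amino acid transporter, fell by 1.06 (limma adjusted p = 0.0396), a call lost without array 1 (0.0983), 2 (0.0781) or 3 (0.107) of the SKP-derived Schwann cells or SKP array 1 (0.0831) or 2 (0.101). The count of falls was 3 without SKP array 2, and 4 without SKP array 1 or any of the SKP-derived Schwann cell arrays.

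Prostaglandin genes fell at 13 of 26 and rose at 2. Ptgs1, a cyclooxygenase, was 11.75, 11.67 and 11.25 in SKPs and 5.31, 6.85 and 5.94 in SKP-derived Schwann cells (difference -5.53, SE 0.37, limma adjusted p = 0.000113). Alox15, a lipoxygenase, was 9.78, 10.66 and 10.56 in SKPs and 5.69, 6.06 and 5.64 in SKP-derived Schwann cells (difference -4.54, SE 0.27, limma adjusted p = 6.25e-05). The prostacyclin and prostaglandin F receptor genes Ptgir and Ptgfr fell (differences -3.73 and -3.69). The inducible cyclooxygenase Ptgs2 was 8.51, 8.84 and 6.45 in SKPs and 4.68, 7.75 and 6.21 in SKP-derived Schwann cells and was not called (-1.72, 95% interval -3.69 to 0.25), but it was without SKP array 3 (-2.46, limma adjusted p = 0.0418). The 2 members that rose were Ptgds, the prostaglandin D synthase of glia and meninges (1.72), and the phospholipase Pla2g5 (1.11), whose call was lost without SKP array 1 (limma adjusted p = 0.0511). Ptges, a prostaglandin E synthase, fell by 1.95 (limma adjusted p = 0.034), a call lost without array 1 (0.0718), 2 (0.0696) or 3 (0.108) of the SKP-derived Schwann cells or SKP array 1 (0.105) or 2 (0.105).

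**Figure D5:**
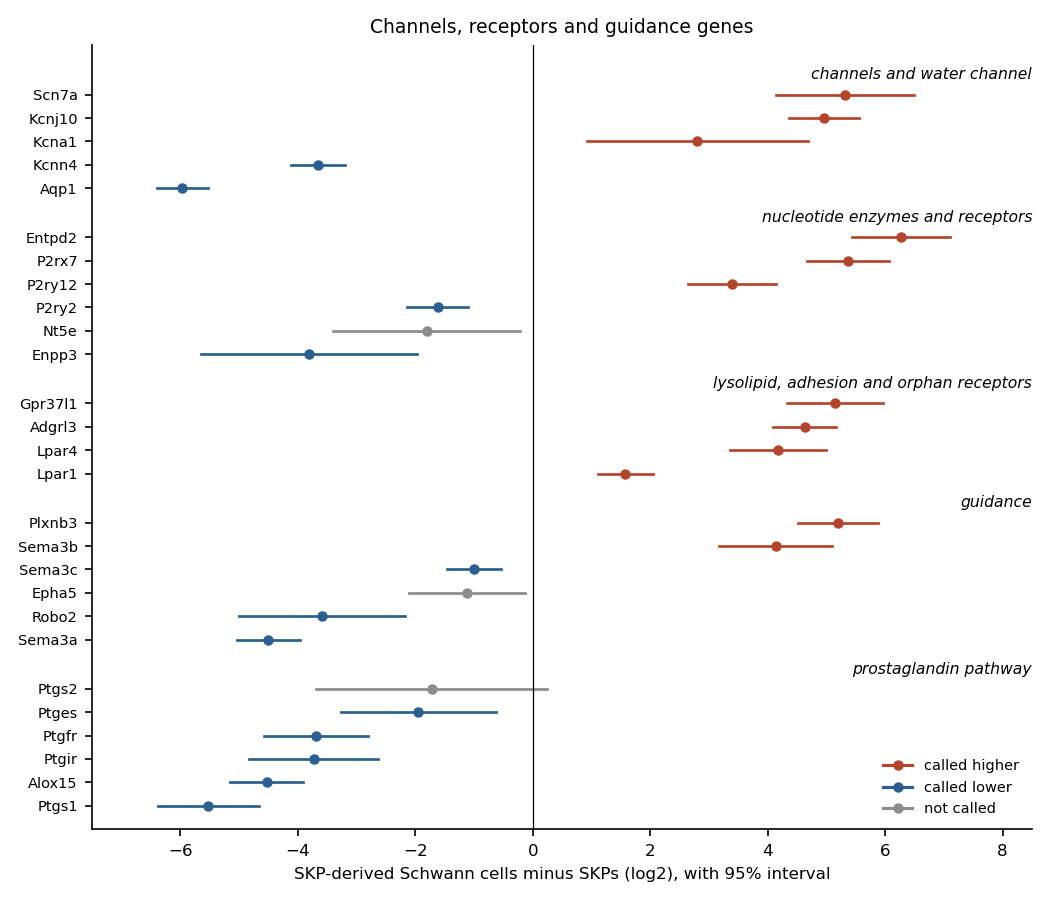
Difference between SKP-derived Schwann cells and SKPs in log2 level (points) with its 95% interval from the limma fit (lines) for channels, nucleotide enzymes and receptors, other receptors, guidance genes and the prostaglandin pathway; red, called higher; blue, called lower; grey, not called. Entpd2, P2rx7 and Scn7a are highest and Aqp1 and Ptgs1 lowest, and the 6 prostaglandin genes shown all lie left of 0, with the interval of Ptgs2 crossing it.

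Thyroid hormone and retinoid handling genes fell at 8 of 24 and rose at 2. Dio2 was 10.45, 12.08 and 10.49 in SKPs and 5.02, 4.27 and 6.03 in SKP-derived Schwann cells (difference -5.90, SE 0.55, limma adjusted p = 0.000339). Cyp26b1, which degrades retinoic acid, was 10.78, 10.54 and 7.62 in SKPs and 5.45, 5.43 and 5.27 in SKP-derived Schwann cells (difference -4.26, SE 0.75, limma adjusted p = 0.00451), with SKP array 3 far below the others. Rxrg, a retinoid receptor of Schwann cells, rose from 6.12, 6.30 and 5.91 to 10.41, 9.14 and 9.80 (difference 3.68, SE 0.31, limma adjusted p = 0.000233), and Rarres2, which encodes chemerin, by 3.27. The count of falls was 5 without array 1 of the SKP-derived Schwann cells.

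Positional regulators fell at 6 of 33 (18.2%) and rose at 3 (9.1%), near and below the shares over all genes, with 1 rise without array 1 or 3 of the SKP-derived Schwann cells. Hoxa5 was 7.73, 7.59 and 7.73 in SKPs and 4.93, 6.53 and 5.31 in SKP-derived Schwann cells (difference -2.09, SE 0.38, limma adjusted p = 0.00514), and Meis1, a cofactor of HOX proteins, was 9.22, 9.56 and 9.72 and 7.23, 7.15 and 7.42 (difference -2.23, SE 0.19, limma adjusted p = 0.000233). Array 2 of the SKP-derived Schwann cells had the highest Hoxa5 of its group. Tbx18, a factor of dermal papilla precursors, fell by 2.04, and Tbx15, a dorsal skin factor, was not called (-1.26, limma adjusted p = 0.101), but it was without array 2 of the SKP-derived Schwann cells (-1.75, limma adjusted p = 0.0306). Tbx2, another T-box factor, rose by 1.94 (limma adjusted p = 0.0278), a call lost without array 1 (0.0521) or 3 (0.0865) of the SKP-derived Schwann cells or SKP array 2 (0.0753).

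Immediate early genes rose at 8 of 26 and fell at 4. Fos was 10.74, 9.93 and 9.87 against 6.66, 6.73 and 6.98 (difference 3.39, SE 0.26, limma adjusted p = 0.00016), Egr1 was 12.14, 11.38 and 11.59 against 8.92, 10.25 and 9.07 (difference 2.29, SE 0.37, limma adjusted p = 0.00333), and Nr4a1, a nuclear receptor induced by stimuli, rose by 3.01. Atf3 rose by 3.05, with SKP array 3 the highest SKP (7.16, 7.25 and 8.74). The 4 that fell were Klf4, Ier5, Nfkbiz and Fosl2 (-2.06 to -1.11), and the Fosl2 call was lost without array 2 (limma adjusted p = 0.0785) or 3 (0.105) of the SKP-derived Schwann cells or SKP array 2 (0.0704).

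Cell cycle inhibitors changed in opposite directions. Cdkn1b, which encodes p27, was 11.40, 10.92 and 11.77 against 8.55, 8.66 and 9.23 (difference 2.55, SE 0.28, limma adjusted p = 0.000593). Both INK4 family genes named here fell: Cdkn2b was 10, 9.94 and 10.08 in SKPs and 7.60, 7.87 and 7.54 in SKP-derived Schwann cells (difference -2.34, SE 0.17, limma adjusted p = 0.00014), and Cdkn2a fell by 2.60. Gadd45a and Cdkn1a, growth arrest genes, fell (differences -3.55 and -1.64). Ccnd1, the G1 cyclin, was 11.20, 11.57 and 12.19 against 12.71, 12.54 and 12.24 and missed the threshold (limma adjusted p = 0.0502), but it was called lower under the 3 other scalings (0.0229 to 0.0365) and without array 3 of the SKP-derived Schwann cells (0.0168) or SKP array 3 (0.0432). In all 3 of the 21 genes rose (14.3%) and 6 fell (28.6%), against 14.2% and 17.2% over all genes. There were 6 rises without SKP array 3.

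Mitosis and spindle genes rose at 3 of 33 and fell at 0, below the 14.2% of all genes called higher, although the median was 0.98 (0.12 without SKP array 3). Ccna2, the cyclin of S and G2 phase, was 8.99, 9.01 and 9.39 against 7.45, 6.96 and 5.75 (difference 2.41, SE 0.40, limma adjusted p = 0.00369). Top2a, a topoisomerase of dividing cells, was 9.09, 8.82 and 9.90 against 9.39, 8.91 and 5.0 and was not called (1.50, 95% interval -0.92 to 3.92). SKP array 3 was far below every other array for Top2a, and the list mean was 5.35 on it against 7.89 and 7.31 on SKP arrays 1 and 2 and 7.52 to 8.33 in SKP-derived Schwann cells. Nusap1, a spindle protein, rose by 2.48 (limma adjusted p = 0.0258), a call lost without array 1 (0.051), 2 (0.0607) or 3 (0.089) of the SKP-derived Schwann cells or SKP array 2 (0.0525). Bub1, a checkpoint kinase, rose by 1.98 (limma adjusted p = 0.0497), a call lost after median centring (0.0596) or cyclic loess (0.0534) and without array 1 (0.0851), 2 (0.086) or 3 (0.15) of the SKP-derived Schwann cells or SKP array 2 (0.0866). Ccnb1, the mitotic cyclin, was not called (1.09, 95% interval -0.29 to 2.48). There were 6 rises without SKP array 1, and 1 without SKP array 2 or without any one of the 3 SKP-derived Schwann cell arrays; without SKP array 3 there were 3 rises and 1 fall. Replication genes rose at 2 of 31 (6.5%) and fell at 1 (3.2%). Pcna, the sliding clamp, rose by 1.05 and the flap endonuclease gene Fen1 fell by 1.25, while Mcm2 was not called (-0.09). Rpa2, a single-strand DNA binding protein, rose by 0.88 (limma adjusted p = 0.0404), a call lost after median centring (0.0718) and without array 1 (0.0679), 2 (0.0539) or 3 (0.112) of the SKP-derived Schwann cells or SKP array 2 (0.0958) or 3 (0.0901). Rrm2, a ribonucleotide reductase subunit, was not called (0.67, 95% interval -1.20 to 2.54). There were 4 rises without SKP array 1, 1 rise without SKP array 2 or 3 or array 1 or 3 of the SKP-derived Schwann cells, and 4 falls without SKP array 3.

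In the hypoxia response and glycolysis list, 19 of 44 genes fell and 2 rose (median -0.91, and -0.36 without SKP array 3). Hk2, hexokinase 2, was 8.99, 9.77 and 11.31 in SKPs and 5.77, 6.30 and 6.30 in SKP-derived Schwann cells (difference -3.90, SE 0.53, limma adjusted p = 0.00151), and the lactate exporter Slc16a3 was 8.92, 9.56 and 10.29 and 6.43, 6.47 and 6.34 (difference -3.18, SE 0.32, limma adjusted p = 0.000463). Pgk1, a glycolytic kinase, was 11.52, 11.63 and 12.30 in SKPs and 8.88, 9.32 and 9.04 in SKP-derived Schwann cells (difference -2.73, SE 0.25, limma adjusted p = 0.00029). SKP array 3 was the highest array for these 3 genes, and its list mean was 10.28 against 9.53 and 9.51 in SKP arrays 1 and 2 and 8.80 to 8.93 in SKP-derived Schwann cells. Without SKP array 3 the list had 19 falls and 2 rises. Vegfa was 8.28, 8.49 and 10.74 in SKPs and 8.35, 9.86 and 8.41 in SKP-derived Schwann cells, where array 3 of the first group and array 2 of the second were high, and it was not called (-0.30, 95% interval -1.90 to 1.30). The 2 rises were Epas1, the gene of the hypoxia factor HIF-2 alpha, from 6.39, 6.35 and 5.70 to 10.10, 9.94 and 9.42 (difference 3.68, SE 0.26, limma adjusted p = 0.000141), and Ndrg1, a gene needed for myelin maintenance (1.78), whose call was lost without SKP array 1 (limma adjusted p = 0.053) or 2 (0.0615).

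The letters ACGTG, the core of the hypoxia response element, were in the 250 bases before the start of 19 of the 38 hypoxia and glycolysis genes with a RefSeq promoter (50.0%), against 16.6% of all promoters in the table. The first share counts genes and the second promoters, without a limit to the genes tested. ACGTG and its reverse complement CACGT overlap in CACGTG. Of the genes that fell, 7 of 17 held the letters (41.2%), and of those not called 12 of 20 (60.0%). The 3 promoters shown are of P4ha2, a collagen prolyl hydroxylase, which fell by 3.08, of the glucose transporter Slc2a1, which fell by 1.87, and of lactate dehydrogenase Ldha, which was 13.09, 12.63 and 12.89 against 13.04, 12.99 and 13.19 and was not called (95% interval -0.62 to 0.22). Ldha was picked after its values were seen. Capitals mark ACGTG or its reverse complement, 5′ to 3′ on the plus strand of build GRCr8, at chr10:38743644-38743893 for P4ha2, chr5:138002272-138002521 for Slc2a1 and chr1:106507842-106508091 for Ldha.
P4ha2: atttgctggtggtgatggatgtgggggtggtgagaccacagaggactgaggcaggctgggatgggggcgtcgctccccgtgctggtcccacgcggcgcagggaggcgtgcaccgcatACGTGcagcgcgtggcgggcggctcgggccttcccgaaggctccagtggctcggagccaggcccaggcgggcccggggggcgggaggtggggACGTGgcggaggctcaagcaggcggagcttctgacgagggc
Slc2a1: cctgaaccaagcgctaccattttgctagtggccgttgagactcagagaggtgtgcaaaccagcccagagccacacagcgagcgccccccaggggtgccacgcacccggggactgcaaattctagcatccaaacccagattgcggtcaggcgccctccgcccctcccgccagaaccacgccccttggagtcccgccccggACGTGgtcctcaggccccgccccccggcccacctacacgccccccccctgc
Ldha: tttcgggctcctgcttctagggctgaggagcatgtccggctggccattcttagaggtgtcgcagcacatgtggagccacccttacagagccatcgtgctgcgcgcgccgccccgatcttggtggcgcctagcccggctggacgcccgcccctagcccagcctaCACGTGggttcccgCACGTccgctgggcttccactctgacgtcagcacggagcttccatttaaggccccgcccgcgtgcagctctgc
The gene that was not called held 3 matches, P4ha2 held 2 and Slc2a1 held 1. For the cholesterol list, the sterol response element TCACNCCAC was in the promoters of 0 of 18 genes, against 1.0% of all promoters.

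Serine synthesis and amino acid stress genes rose at 4 of 30 (13.3%) and fell at 7 (23.3%), against 14.2% and 17.2% over all genes. Aldh1l2, a mitochondrial folate enzyme, was 8.89, 9.29 and 9.22 in SKPs and 5.06, 6.53 and 5.36 in SKP-derived Schwann cells (difference -3.49, SE 0.37, limma adjusted p = 0.000534), and the stress factor Cebpb fell by 2.31. Nupr1, a stress-induced nuclear protein, fell by 3.40 (limma adjusted p = 0.00692), and Slc1a5, a glutamine transporter, fell by 2.06 (limma adjusted p = 0.00841). Asns, asparagine synthetase, was not called (0.70, 95% interval -0.54 to 1.94), and Atf4, the main factor of the amino acid response, was not called (-0.46, 95% interval -1.07 to 0.14). Phgdh, the first enzyme of serine synthesis, was 8.91, 8.68 and 9.14 against 7.32, 7.98 and 8.72 and missed the threshold (limma adjusted p = 0.0797) and passed it without SKP array 3 (1.26, limma adjusted p = 0.00906), where 6 members rose. The list mean was 9.07 on SKP array 3 against 7.96 and 8.18 on the others.

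Ribosomal protein genes fell at 21 of 49 and rose at 4. Rps27 was 6.79, 6.96 and 7.49 in SKPs and 3.82, 5.24 and 4.98 in SKP-derived Schwann cells (difference -2.40, SE 0.38, limma adjusted p = 0.00285), and Rps3 was 13.08, 13.15 and 13.38 and 9.95, 10.01 and 10.56 (difference -3.03, SE 0.21, limma adjusted p = 0.000129), with a second Rps3 feature at -1.47. Rpl30 fell by 1.70 (limma adjusted p = 0.00887). Rpl4 was not called (0.45, 95% interval 0.03 to 0.88), with a second feature at 0.83, though it was called with the mean of its features (0.0416) and in the 9-array fit (0.0347). Of the 7 features for Rpl13, 6 fell (-2.07 to -1.88) and 1 rose by 4.29. Rpl3 was not called (0.41). These genes have many processed copies in the genome, to which the probes of a feature may also bind. Respiratory chain subunits rose at 5 of 29 (17.2%) and fell at 8 (27.6%), against 14.2% and 17.2% over all genes. Ndufv2, of complex I, was 11.14, 10.97 and 11.15 against 9.24, 8.60 and 8.65 (difference 2.26, SE 0.21, limma adjusted p = 0.000352), while Ndufs1, of the same complex, fell by 1.24, and Atp5f1b was not called (0.06). Sdhc, of complex II, rose by 1.51 (limma adjusted p = 0.000475), while Ndufa1, of complex I, fell by 1.40 (limma adjusted p = 0.00956). Cox4i1, of complex IV, was not called (0.39, 95% interval -0.16 to 0.94). There were 5 falls without SKP array 1 or array 1 of the SKP-derived Schwann cells.

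Antigen processing genes fell at 7 of 18 and rose at 0. Tap1, a peptide transporter, was 9.31, 9.11 and 9.36 in SKPs and 6.60, 6.72 and 6.91 in SKP-derived Schwann cells (difference -2.52, SE 0.17, limma adjusted p = 0.000113), and Psmb8, of the immunoproteasome, was 8.33, 8.37 and 7.92 and 5.87, 5.70 and 5.71 (difference -2.45, SE 0.18, limma adjusted p = 0.000154). B2m, the light chain of MHC class I, was 12.27, 12.92 and 12.51 against 12.92, 12.39 and 12.77 and was not called (95% interval -0.66 to 0.41). Tap2, the partner of Tap1, fell by 2.12 (limma adjusted p = 0.000265), and Tapbpl, a tapasin-related protein, fell by 2.20 (limma adjusted p = 0.000202). Interferon response genes fell at 8 of 35 (22.9%) and rose at 3 (8.6%), against 17.2% and 14.2% over all genes. There was 1 rise without SKP array 1 or 2 or without array 1 of the SKP-derived Schwann cells. Usp18 was 7.72, 7.37 and 6.78 in SKPs and 3.69, 3.56 and 3.49 in SKP-derived Schwann cells (difference -3.71, SE 0.25, limma adjusted p = 0.000113) and Ifi27 fell by 3.50, while Irf7 and Ifit3 were not called (0.61 and -0.18). Gbp2, a guanylate-binding protein, rose by 1.51 (limma adjusted p = 0.00421), and Ifi44l, an interferon-induced gene, fell by 1.50 (limma adjusted p = 0.00986). Of 44 chemokine and interleukin genes, 11 fell (25.0%) and 4 rose (9.1%), against 17.2% and 14.2% over all genes. Il13ra2, a decoy receptor of interleukin 13, was 7.94, 8.82 and 7.30 in SKPs and 3.11, 3.08 and 3.42 in SKP-derived Schwann cells (difference -4.81, SE 0.36, limma adjusted p = 0.000154). Cxcl16 and Il7 fell (differences -4.05 and -3.58). Ccl2 was 9.59, 12.45 and 9.18 in SKP-derived Schwann cells and 11.77, 11.51 and 7.46 in SKPs, where array 2 of the first was high and array 3 of the second was low, and it was not called. Tnfrsf1b, a TNF receptor, fell by 3.72 (limma adjusted p = 0.000183). Cxcl12, a chemokine, was not called (-1.44, 95% interval -3.63 to 0.75), but it was without SKP array 3 (0.00174), as limma adjusted p. Il6, interleukin 6, was not called (0.89, 95% interval -0.63 to 2.41). Of 19 complement genes 3 rose (15.8%) and 4 fell (21.1%), near the 14.2% and 17.2% over all genes, with 6 falls without SKP array 3. Cd55, which protects cells from complement, was 10.63, 11.15 and 8.84 against 7.48, 7.18 and 7.75 (difference 2.73, SE 0.54, limma adjusted p = 0.00731), and C1s, a protease of the classical pathway, fell by 3.54. Serping1, the C1 inhibitor, fell by 2.98 (limma adjusted p = 0.00221). C1r, the partner protease of C1s, fell by 1.96 (limma adjusted p = 0.0378), a call lost without array 1 (0.0588), 2 (0.112) or 3 (0.0869) of the SKP-derived Schwann cells or SKP array 1 (0.116) or 2 (0.121). C3, the central complement component, was not called (-0.54, 95% interval -1.57 to 0.49).

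Markers of other cell types were read on the same arrays. The macrophage list of 21 genes had a mean of 5.56 to 5.91 in SKP-derived Schwann cells and of 8.20, 6.37 and 5.66 in SKPs. Ptprc, the leukocyte common antigen, was 7.66, 4.64 and 4.13 in SKPs and 3.93, 4.25 and 4.20 in SKP-derived Schwann cells, Csf1r was 7.42, 5.73 and 5.57 and 5.59, 5.67 and 5.46, and Cd68 was 9.76, 8.39 and 6.47 and 6.60, 6.88 and 7.01. SKP array 1 was thus the highest for each, none of the 3 was called, and Ptprc was among the dimmest genes on the other 5 arrays. Of the list 1 gene rose, Cd48 (2.75), and 1 fell, Cd14 (-4.57). That is 9.5% of the list called, below the 31.4% over all genes. Without SKP array 3, 7 fell, Cd68 among them (limma adjusted p = 0.00417). The antigen and complement lists were highest on SKP array 1 as well, at 9.19 and 7.65 against 8.53 to 8.81 and 6.5 to 7.03 in the other SKPs. The part of macrophage RNA in these was not tested. Without SKP array 1, 7 antigen genes fell, and the median difference of the antigen list was -0.56, against -0.76 with all 6 arrays. That of the complement list was -0.06 without this array, against -0.42, and that of the macrophage list -0.21, against -0.88.

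Some markers of muscle and of adipose, endothelial and epithelial cells were low in both groups. Adipoq was at most 5.27, Kdr at most 5.14, Myod1 at most 5.45, Epcam at most 4.71 and Krt14 at most 5.89 on all 6 arrays, and none of these was called. Other members of those lists were called. Of 19 adipocyte genes 1 rose and 3 fell, with 0 rises after median centring or without SKP array 1 or 2 or array 1 of the SKP-derived Schwann cells, and 5 falls without SKP array 3. Plin2, a lipid droplet protein of many cell types, was 10.48, 10.46 and 9.64 in SKPs and 8.02, 7.88 and 8.25 in SKP-derived Schwann cells. Plin2 fell by 2.15 (limma adjusted p = 0.000944), Zfp423 fell by 2.53 and Cebpa fell by 0.97. Dgat2, which makes triglycerides, rose by 1.35 (limma adjusted p = 0.0383), a call lost after median centring (0.0562) and without array 1 (0.116) or 3 (0.12) of the SKP-derived Schwann cells or SKP array 1 (0.0508), 2 (0.0571) or 3 (0.0664). Plin1 and Pparg were not called (0.04 and -0.78). Of 15 endothelial genes 1 rose and 2 fell, and 0 moved without SKP array 1 or array 1 or 3 of the SKP-derived Schwann cells. Eng, endoglin, was 10.39, 10.37 and 9.20 in SKPs and 7.02, 9.32 and 7.73 in SKP-derived Schwann cells. Eng fell by 1.97 (limma adjusted p = 0.0376), a call lost after cyclic loess (0.0544) and without array 1 (0.108) or 3 (0.112) of the SKP-derived Schwann cells or SKP array 1 (0.11) or 2 (0.116). Egfl7 fell by 0.75 (limma adjusted p = 0.047), a call lost without array 1 (0.0962), 2 (0.112) or 3 (0.102) of the SKP-derived Schwann cells or SKP array 1 (0.122) or 2 (0.108). Tek, the angiopoietin receptor, rose by 0.94 (limma adjusted p = 0.0457), a call lost after median centring (0.0771), cyclic loess (0.0744) or quantile normalization (0.073) and without array 1 (0.14) or 3 (0.122) of the SKP-derived Schwann cells or SKP array 1 (0.128) or 3 (0.102). Cdh5 and Pecam1, which define the type, were not called (-0.04 and 0.42), though Pecam1 was with array weights (0.0222). Of 15 keratinocyte genes 1 rose, Cdh1, and 1 fell, the desmosomal cadherin gene Dsc3, which was 7.61, 6.90 and 8.62 in SKPs and 4.40, 4.81 and 4.63 in SKP-derived Schwann cells. Of 13 satellite cell and muscle genes 1 rose, Pax3, and 1 fell. Chrna1, a muscle acetylcholine receptor subunit, fell by 1.71 (limma adjusted p = 0.0449), a call lost without array 1 (0.133), 2 (0.0537) or 3 (0.118) of the SKP-derived Schwann cells or SKP array 1 (0.128) or 2 (0.132). Myf5, a muscle factor, was not called (0.12, 95% interval -0.29 to 0.53). Of 16 cartilage and bone genes 2 rose, Cnmd and Comp (1.70 and 0.84), and 1 fell, with 0 falls without SKP array 1 or 2 or any array of the other group, and 2 without SKP array 3. Mepe fell by 1.34 (limma adjusted p = 0.0389), a call lost without array 1 (0.0727), 2 (0.0852) or 3 (0.116) of the SKP-derived Schwann cells or SKP array 1 (0.0937) or 2 (0.111). Runx2, a bone factor, was not called (0.67, 95% interval -0.17 to 1.52), but it was without array 3 (0.0399) of the SKP-derived Schwann cells, as limma adjusted p, and Sp7 was not called (-0.06). Of 13 perineurial genes 1 rose, Itgb4, and 3 fell, Itgbl1 (-1.93), Slc2a1 and Etv1, with 2 falls without SKP array 1 or 2 or array 3 of the SKP-derived Schwann cells, and 2 rises without that last array. Of 18 smooth muscle and pericyte genes 3 rose (16.7%) and 4 fell (22.2%), near the 14.2% and 17.2% over all genes. There was 1 rise without array 1 of the SKP-derived Schwann cells, and there were 2 without each other array. Cald1, an actin-binding protein, fell by 2.31 (limma adjusted p = 0.000833). Myh11, the smooth muscle myosin, fell by 0.66 (limma adjusted p = 0.029), a call lost without array 1 (0.0683), 2 (0.0725) or 3 (0.0601) of the SKP-derived Schwann cells or SKP array 2 (0.0743) or 3 (0.0736). Tagln, an actin-binding protein of smooth muscle, rose by 1.46 (limma adjusted p = 0.0224), a call lost without array 1 (0.0651) or 2 (0.0601) of the SKP-derived Schwann cells or SKP array 2 (0.0731). Rgs5, a pericyte marker, was not called (0.47, 95% interval -0.17 to 1.11). The part of these cell types in any result was not tested. Acta2, smooth muscle actin, was 8.72, 8.75 and 8.67 against 8.60, 8.60 and 8.46 and was not called. Cspg4, the NG2 proteoglycan of pericytes and immature glia, was 10.22, 10.50 and 9.79 in SKPs and 6.24, 6.61 and 6.04 in SKP-derived Schwann cells (difference -3.88, SE 0.24, limma adjusted p = 8.02e-05). Of 10 melanocyte genes 2 rose and 2 fell, with 1 rise without SKP array 2. Tyrp1, a pigment enzyme, was 9.94, 7.29 and 6.30 against 4.44, 4.65 and 5.08, led by array 1, and its rise of 3.12 was lost without SKP array 1 or 2 (limma adjusted p = 0.0679 each). Kit, the receptor of stem cell factor, fell by 2.68. Oca2, a melanosome protein, rose by 1.00 (limma adjusted p = 0.00869). Of 15 neuronal genes 1 rose and 1 fell, with 3 falls after median centring, 2 without SKP array 2, and 0 without SKP array 1 or 3 or any array of the SKP-derived Schwann cells. Nefl, a neurofilament chain that Schwann cells can also express, rose by 5.42 (12.63, 11.78 and 9.28 against 6.57, 5.78 and 5.08), while Rbfox3 and Snap25 were not called. Elavl4, an RNA-binding protein, fell by 0.57 (limma adjusted p = 0.0397), a call lost after cyclic loess (0.0556) and without array 1 (0.0528), 2 (0.0921) or 3 (0.0879) of the SKP-derived Schwann cells or SKP array 1 (0.109), 2 (0.0798) or 3 (0.076). Syt1, a synaptic vesicle protein, was not called (-0.67, 95% interval -1.22 to -0.12), but it was after median centring (0.0332), cyclic loess (0.0458) or quantile normalization (0.0397) and without SKP array 2 (0.0462), as limma adjusted p.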

How the data were processed

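RNA of each sample was hybridised to 1 Affymetrix array (Rat Gene 1.0 ST). The deposited values are log2 levels that the authors computed by RMA, with Affymetrix Expression Console as the tool, per the submitters' processing notes (versions: not given in the sources used here). RMA subtracts background, quantile-normalises and summarises probes, so that it compresses differences near background and its scaling assumes like distributions. The median level over all features was 6.33 to 6.44 on the SKP-derived Schwann cell arrays and 6.20 to 6.27 on the SKP arrays. It was 6.82 to 6.87 on the nerve arrays. Whether the arrays were normalised together is not stated in the sources used here. The number of arrays limits the precision. All 9 columns of values were mapped to samples and 0 columns were left unused. Of 29214 features, 15310 carried 1 gene symbol in the platform annotation, 323 several and 13581 none. The feature with the highest mean over the 6 arrays stood for a gene with more than 1 feature (527 genes), which gave 14506 genes. limma 3.58.1 in R 4.3.3 (lmFit, eBayes) was fitted to the 6 arrays alone, with Benjamini-Hochberg adjustment. With 3 against 3 arrays an exact permutation test of 1 gene cannot go below 0.1, and calls rest on the model's shared variance (4 residual degrees of freedom, median 7.68 with the prior). The fitting step was tested on simulated data.

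The genes and 61 lists (1480 of 1709 entries measured) were chosen with earlier results of these data known. The naming rule took the 15 largest rises and falls of called genes free of overlap, the first 3 leads and up to 4 largest called members of each list, the fatty acid binding proteins, Mmp3 and Mmp10, and members called against the direction of their list. No list was tested as a set. Alternatives were other scalings, filters, feature rules, variances, array weights, thresholds, the 9-array fit, a replicate block and each array left out. Promoter sequences are RefSeq's of build GRCr8, and no build is given for the array annotation in the sources used here. The labels call the samples independent without naming animals, so p-values measure the spread between these samples.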

Additional observations from a re-analysis of the deposited data

How the results depend on the processing

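The count of called genes was 4550 to 4763 under the 3 other scalings and the mean of a gene's features, and 3124 to 4311 when each array was left out in turn (higher 1419 to 1914, lower 1705 to 2397). All 9 arrays in 1 fit gave 6037 calls and array weights gave 6307. The nerve arrays had a median standard deviation of 0.11, against 0.23 in the SKP-derived Schwann cells and 0.226 in the SKPs. The spread shared over 9 arrays is thus too small for this comparison, and calls gained only in that fit carry this limit. At an adjusted p under 0.01 there were 2477 calls (1116 higher, 1361 lower), and with a minimum of 2-fold 2854 (1242 higher, 1612 lower). Median centring moved the share of higher calls from 45.2% to 34.4%. Leaving out array 2 of the SKP-derived Schwann cells together with SKP array 3, chosen after seeing the data, gave 4703 calls (2176 higher, 2527 lower). In it Ccl2 (0.158 with all 6 arrays) was -2.257 (limma adjusted p = 0.000277) and Cldn1 (0.495) was -1.515 (limma adjusted p = 0.0297). For both genes the arrays left out were the highest of the SKP-derived Schwann cells and the lowest of the SKPs. Over single arrays left out the difference ran from -1.236 to 0.921 for Ccl2 and from -1.175 to 1.662 for Cldn1. Of 358 genes followed, 273 were called, of which 228 kept their call without each array in turn and 264 under all 4 scalings. Same-numbered samples did not deviate together (correlations -0.124, 0.046 and 0.031), and the numbers are not taken as pairs; with the replicate block there were 3987 calls (1755 higher, 2232 lower) and 15 of the followed genes lost their call. Dim genes near the lower quartile can understate a difference.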
